A study of Mus musculus with 3 samples.

Results

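Processed pseudogenes are intronless copies of mRNAs that reverse transcription has placed elsewhere in the genome. Ago2 HITS-clip peaks that lay over them were examined in the N2A mouse neuroblastoma line. A peak was counted where its midpoint fell in an exon of a gene that GENCODE M21 (GRCm38) types as processed or transcribed processed pseudogene, on the strand of that pseudogene, and in no exon of a protein-coding gene on that strand. Of 2039384 peaks in the 3 libraries, 3131 met this rule, 930 in replicate 1, 942 in replicate 2 and 1259 in replicate 3. The annotation holds 10236 such pseudogenes, 9940 of the processed and 296 of the transcribed type, with a median exon length of 538 nt. Peaks whose midpoint met the same rule on the other strand of a pseudogene numbered 1735 and served as the background.

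The libraries form a single group. N2A cells under basal conditions were crosslinked with ultraviolet light at 400 mJ/cm2 and then 2 times at 200 mJ/cm2. Ago2 with its bound RNA was immunoprecipitated with clone 2D4, separated by SDS-PAGE, blotted and sequenced. Nothing in the sources used here says that the replicates came from separate cultures, so the SD between libraries may be technical, and no input RNA or control immunoprecipitation was analysed here, so a count of peaks is not corrected for how much of an RNA was present. The table held 711377, 498071 and 829936 peaks for replicates 1 to 3. Of 17 neuroblastoma and neuron marker genes, 12 had an exon peak in all 3 libraries, and Th, the rate-limiting enzyme of catecholamine synthesis, had none. Over all annotated genes the share with an exon peak in all 3 libraries was 16.3%. Among 12 markers of other cells, Aqp4, Mbp and Ptprc also had an exon peak in all 3 libraries, and Csf1r and Hbb-bt had none in any. Replicate 1 stood apart in strand, with 3.05 peaks on the coding strand for each on the other strand of protein-coding exons against 10.9 and 9.64 in replicates 2 and 3.

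Argonaute proteins carry miRNAs to complementary sites in RNA, and crosslinking fixes the protein to the stretch it holds. The pseudogene copies of a gene often remain so close to their mRNA that a short read fits both, and a copy can be told from its parent only at bases where it has changed. Some processed pseudogenes are transcribed, and pseudogene transcripts that share miRNA sites with their parent have been studied as competing binding partners. For each pseudogene the parent was taken here as the protein-coding gene whose transcript gave the best alignment, which was found for 9942 of 10236, with a median identity of 90.8%.

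Among the pseudogenes with a peak in all 3 libraries, 12 had a stretch covered by a peak in every library. The pairs printed here show what such a stretch looks like beside its parent mRNA. Each is written 5′ to 3′ from GRCm38, the pseudogene on its own strand and the parent as its coding sequence, and capitals mark the bases at which the pair differ.

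Gm12754 lies at chr4:34389394-34389847 on the minus strand and is a copy of Rps27a, which encodes ubiquitin fused to a ribosomal protein. Its common stretch, chr4:34389510-34389605, was 96 nt long and had 9 differences from the parent. The peaks ended at these same bases in replicates 1 and 3, and replicate 2 reached from 34389510 to 34389610. The parent bases lie in 2 exons within chr11:29546006-29546362 on the minus strand.
Gm12754: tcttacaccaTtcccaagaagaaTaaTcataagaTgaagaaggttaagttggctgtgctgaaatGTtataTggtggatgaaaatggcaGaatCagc
Rps27a: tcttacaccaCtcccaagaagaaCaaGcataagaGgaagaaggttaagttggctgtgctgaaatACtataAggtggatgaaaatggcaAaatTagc

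Gm7468, at chr6:142970662-142971313 on the minus strand, is a copy of Hmgb1, a chromatin protein of the high mobility group, with 95.9% identity. All 3 libraries had a peak with exactly the same ends, chr6:142970822-142970901, and its 80 nt had 2 differences from the mRNA. The parent bases lie in 2 exons within chr5:149048898-149049790 on the minus strand.
Gm7468: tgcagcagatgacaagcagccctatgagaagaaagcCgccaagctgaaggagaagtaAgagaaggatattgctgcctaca
Hmgb1: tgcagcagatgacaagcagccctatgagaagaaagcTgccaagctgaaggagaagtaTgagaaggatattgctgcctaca

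Gm18599, at chr7:114698520-114699644 on the minus strand, is a copy of Arhgap21, which encodes a GTPase-activating protein. The common stretch was chr7:114698887-114698965, with 12 differences in 79 nt from the parent bases at chr2:20881398-20881476 on the minus strand. The peak of replicate 1 had these ends and those of replicates 2 and 3 began at 114698886.
Gm18599: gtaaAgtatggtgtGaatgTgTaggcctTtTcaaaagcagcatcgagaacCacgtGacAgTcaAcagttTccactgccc
Arhgap21: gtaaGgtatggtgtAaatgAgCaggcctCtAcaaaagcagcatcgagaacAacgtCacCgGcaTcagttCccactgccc

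Gm43354, at chr3:127512900-127513245 on the plus strand, is a copy of Rps26, a protein of the small ribosomal subunit. The stretch common to the libraries, chr3:127513038-127513114, had 8 differences in 77 nt from the parent bases within chr10:128625303-128626104, which lie in 2 exons on the minus strand.
Gm43354: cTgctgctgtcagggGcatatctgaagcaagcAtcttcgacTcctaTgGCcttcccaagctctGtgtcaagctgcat
Rps26: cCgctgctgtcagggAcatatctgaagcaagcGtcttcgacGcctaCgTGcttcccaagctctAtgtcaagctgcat

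Gm43559, at chr3:134272045-134272510 on the minus strand, is a copy of Ugt2b34, a UDP-glucuronosyltransferase gene, with 84.9% identity. In its common stretch, chr3:134272354-134272434, 20 of 81 bases differed from the parent bases at chr5:86906496-86906576 on the minus strand.
Gm43559: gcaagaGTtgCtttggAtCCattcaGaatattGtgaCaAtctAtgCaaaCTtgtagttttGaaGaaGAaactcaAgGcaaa
Ugt2b34: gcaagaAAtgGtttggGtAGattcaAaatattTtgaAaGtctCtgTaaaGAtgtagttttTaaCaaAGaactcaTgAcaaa

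6330549D23Rik, a transcribed pseudogene at chr3:96606659-96629820 on the minus strand, had a peak with the same ends in each library, chr3:96629698-96629781. This stretch lay outside the part that aligned to its parent Ints14, a subunit gene of the Integrator complex. Capitals mark the 24 nt that remain when the outer 30 nt of the peak are taken off each side.
6330549D23Rik: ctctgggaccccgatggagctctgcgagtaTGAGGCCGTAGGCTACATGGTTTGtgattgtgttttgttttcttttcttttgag

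The longest common stretch belonged to D630033A02Rik, a transcribed pseudogene with no parent found, and it lay on a miRNA gene. The stretch, chr10:122985609-122985757 on the minus strand, was 149 nt long and held the whole hairpin of Mirlet7i at chr10:122985640-122985724. The let-7 miRNAs are an old family that acts in developmental timing and differentiation. In RefSeq, the sequences of the hairpin, with its mature arms in capitals, and of each arm, with its seed (bases 2 to 8) in capitals, are as follows.
Mirlet7i: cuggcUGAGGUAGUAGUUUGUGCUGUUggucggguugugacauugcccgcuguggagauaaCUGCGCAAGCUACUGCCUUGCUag
let-7i-5p: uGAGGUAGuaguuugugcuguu
let-7i-3p: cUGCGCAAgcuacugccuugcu
D630033A02Rik carried 2, 3 and 4 peaks in replicates 1 to 3, the most of any of the pseudogenes at 9. In each library 1 peak held all 22 nt of let-7i-3p within its central part, which is the peak less its outer 30 nt on each side, and another held all 22 nt of let-7i-5p. The let-7i-5p peak was 122 nt wide in replicate 1, 96 nt in replicate 3 and 1439 nt in replicate 2. These peaks therefore counted as pseudogene peaks by annotation while they covered both arms of a miRNA.

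The common stretches of the other pseudogenes were 72 nt in Gm48258, which had no parent, 53 nt in 2810025M15Rik, 45 nt in Gm11452, 28 nt in Gm13928 and 8 nt in Gm12902. Gm11452 is a copy of Tada3, a subunit gene of histone acetyltransferase complexes, and had 3 differences over its 45 nt. Gm13928 is a copy of Senp1, a protease gene of the SUMO pathway, and had 2 over its 28 nt. In Gm12902, a copy of Rps25, the peaks of replicates 1 and 2 met only at their ends. The other 56 of the 68 pseudogenes with a peak in all 3 libraries had no base covered in all of them.

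The centre that the libraries shared was searched for in the whole genome, on both strands, for 7 of these stretches. Each centre had 1 exact match, its own. The 20 nt of Gm7468 had 27 further sites that differed at 1 base and 73 at 2 bases. Of the 27, 26 were in processed pseudogenes and the remaining site was in Hmgb1 itself. The 19 nt of Gm18599 had 3 sites at 1 difference, among them Arhgap21, and 51 at 2, and the 17 nt of Gm43354 had 5 and 270. The 36 nt of Gm12754 and the 24 nt of 6330549D23Rik had no site at 1 or 2 differences, Gm43559 had 6 at 2 differences, and Gm11452 had 4 at 2 differences, among them its parent Tada3. Whether reads of the other copies entered these peaks was not tested.

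Peaks over processed pseudogenes favoured the strand of the pseudogene in every library. Replicate 1 had 930 peaks on that strand against 630 on the other, replicate 2 had 942 against 466, and replicate 3 had 1259 against 639. The ratio was 1.48, 2.02 and 1.97, a mean of 1.82 ± 0.301 (SD, n = 3), or 0.85 ± 0.25 on the log2 scale. All 3 libraries lay above equality, and the exact two-sided sign-flip permutation test gave p = 0.25, the smallest value that 3 libraries allow. Without replicate 1 the mean ratio was 2.00. As a share of all peaks on the primary chromosomes, these peaks made up 0.131%, 0.189% and 0.152%, against 0.0886%, 0.0936% and 0.0770% for the opposite strand, and the strands did not overlap.

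The excess differed with peak width. Peaks of up to 85 nt, close to the narrowest at 79 nt, numbered 623, 448 and 611 on the pseudogene strand and 475, 360 and 404 on the other, with a mean ratio of 1.36 ± 0.139. Peaks of 86 to 200 nt numbered 277, 467 and 625 against 111, 64 and 207, with ratios of 2.50, 7.30 and 3.02. In each library the ratio was higher for this class than for the narrow peaks. Peaks of over 1000 nt, up to 10398 nt, were few, 22, 17 and 13, and had fewer on the pseudogene strand than on the other in all 3 libraries. The score deposited with each peak carried little information here, since 98.8% to 99.8% of the pseudogene peaks held its highest value of 60.

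**Figure D1:**
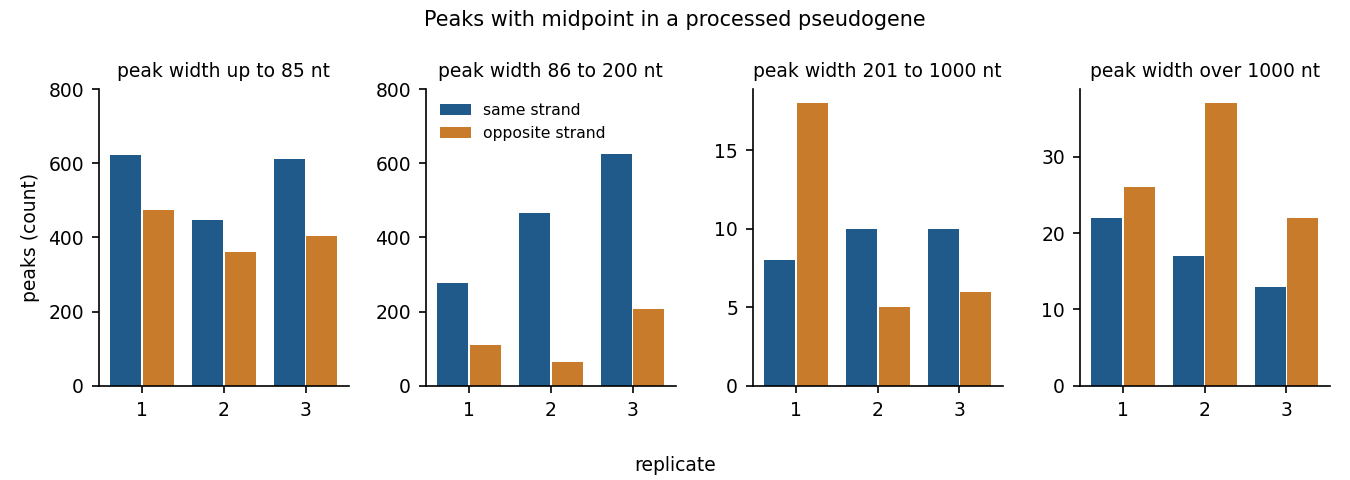
Number of peaks (y axis, count) with midpoint in a processed pseudogene, by replicate (x axis) and peak width (panels; the y scales of the panels on the right are smaller), on the strand of the pseudogene (blue) and on the opposite strand (orange). Blue bars exceed orange ones in every library for both classes up to 200 nt, and orange ones exceed blue ones for peaks over 1000 nt.

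Peak density within pseudogenes was 128, 129 and 173 per Mb on their strand, a mean of 143 ± 25.6, and 79.4 ± 13.4 on the other. Away from the pseudogenes the strands turned. In the last 250 nt before the 5′ end the densities were 129, 77.8 and 126 per Mb on the pseudogene strand against 108, 70.7 and 142 on the other, with the order of strands reversed in replicate 3. Over the 1 kb before the 5′ end the ratio of strands was 0.892 ± 0.0671, and it was 0.792 ± 0.0671 at 2 to 3 kb before. In the 1 kb after the 3′ end it was 1.19 ± 0.124, above equality in all 3 libraries, and at 2 to 3 kb after it was 0.788 ± 0.0994. The first 250 nt past the 3′ end, which lie outside the annotated pseudogene, had 155, 145 and 209 peaks per Mb on its strand against 111, 65.7 and 111 on the other, a density on the pseudogene strand no lower than within. The density over whole chromosomes was 125 ± 30.9 per Mb and strand, with 130, 91.3 and 152 in replicates 1 to 3. The pseudogene strand lay above this level in replicates 2 and 3 and just below it in replicate 1, and the opposite strand, at 86.5, 64.0 and 87.8, lay below it in all 3.

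**Figure D2:**
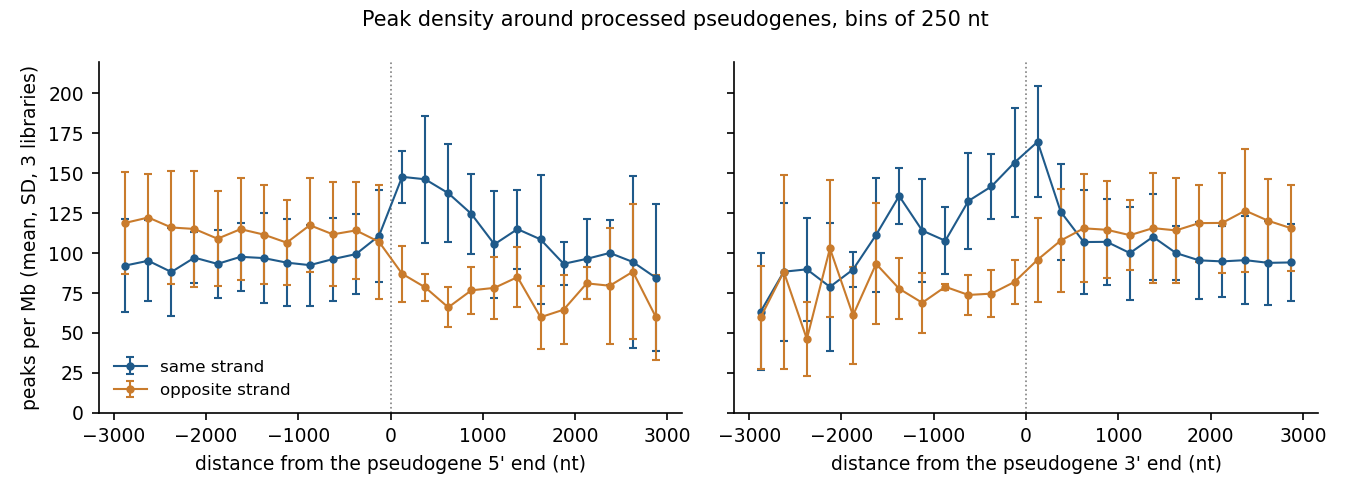
Peak density (y axis, peaks per Mb, mean and SD of 3 libraries) in bins of 250 nt against distance in nt from the 5′ end (left) and 3′ end (right) of processed pseudogenes, on the same strand (blue) and opposite strand (orange). In the bins inside the pseudogenes next to either end, blue lies above orange, and it does so too in the first bin past the 3′ end, where the 3 libraries had 155, 145 and 209 peaks per Mb.

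Other classes of genes were measured in the same way. Unprocessed pseudogenes, which arise by duplication and keep introns, had a ratio of 1.39, 1.78 and 1.26 at 60.6 ± 5.15 peaks per Mb. Exons of lincRNAs had 1.24, 1.43 and 1.24 at 156 ± 11.5 per Mb. Protein-coding exons had a mean ratio of 7.88 ± 4.23 at 896 ± 433 per Mb. The ratio of processed pseudogenes was above that of unprocessed pseudogenes and of lincRNAs, and below that of coding exons, within each library. These differences were not tested, and the sign-flip test cannot reach p below 0.25 with 3 libraries. Among peaks of 86 to 200 nt, unprocessed pseudogenes had ratios of 3.91, 5.78 and 6.4, above those of processed pseudogenes in replicates 1 and 3, so this order did not hold there.

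Peaks at a given pseudogene seldom recurred. At least 1 library had a peak in 2329 of the 10236 pseudogenes, at least 2 libraries in 417 and all 3 in 68, or 0.664%. Over all annotated genes the share with an exon peak in all 3 libraries was 16.3%. With strand reversed the count was 17 pseudogenes, or 0.166%, against 4.68% of all genes. Both shares lay far below those of all genes, many of which are longer than a pseudogene. Of single peaks, 9.32% ± 2.07 overlapped a same-strand peak that another library held (mean and SD over 6 ordered pairs, 7.63% to 13.0%), and the value on the opposite strand was 10.7% ± 1.95. The strands thus differed in number of peaks, while the share of peaks found again differed by less than the spread between pairs. Pair by pair, the opposite strand had the higher share, except for peaks of replicate 1 found again in replicate 2.

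Most windows at the midpoints of pseudogene peaks were found once in the genome. Of the 31-nt windows around peak midpoints, 96.0%, 91.3% and 91.3% occurred once in the genome, while of windows set every 50 nt along all processed pseudogenes 68.4% did. On the opposite strand the share was 97.4% ± 0.338. Narrow peaks of up to 85 nt reached 99.9% ± 0.0945, and peaks of 86 to 200 nt reached 85.2% ± 3.16. How the authors treated reads with several matches is not given in the sources used here.

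Density was higher at higher identity to the parent once this was taken into account. Per Mb of sequence found once, the pseudogene strand had 140 ± 29.9 peaks for pseudogenes under 80% identity, 165 ± 37.2 at 80 to 85%, 183 ± 21.9 at 85 to 90%, 215 ± 42.8 at 90 to 95% and 264 ± 47.6 at 95% or more. Neighbouring classes overlapped between libraries, and the lowest and the highest class did not. The opposite strand went the other way, from 144 ± 10.9 in the lowest class to 99.0 ± 12 in the highest. Over all peaks of a class, whether or not their window was found once, the ratio of strands was 1.15, 0.800 and 0.979 in the lowest class, which showed no excess. It was 2.15, 3.19 and 3.55 in the highest. Without this correction the density of the highest class was 130 ± 28.8 per Mb, near that of the lowest, 127 ± 26.7, and 41.2% of its windows were found once.

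**Figure D3:**
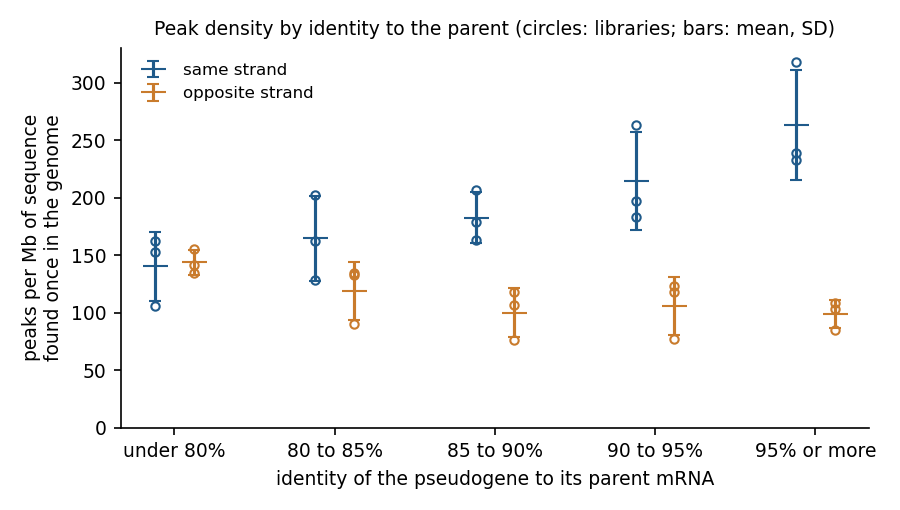
Peaks per Mb of pseudogene sequence found once in the genome (y axis) by identity of the pseudogene to its parent mRNA (x axis), on the same strand (blue) and opposite strand (orange). Circles are the 3 libraries and bars the mean and SD, and the strands meet in the class under 80% and part in the class of 95% or more.

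Stretches that differed from the parent at exactly 1 base were over-represented under pseudogene-strand peaks. In the central part of pseudogene-strand peaks, 32.0%, 33.4% and 38.3% had 1 substitution against the parent, a mean of 34.6% ± 3.29, while runs of as many aligned bases along the same pseudogenes had 1 in 20.6% ± 0.231. Opposite-strand peaks had 1 difference in 17.8% ± 0.859 and their runs in 17.9% ± 0.595, so the excess was absent there. No difference at all was found in 3.23%, 8.62% and 6.24% of pseudogene-strand peaks against 18.5% ± 0.234 of runs. Opposite-strand peaks were also low in this class, at 3.13% ± 0.605 against 14.3% ± 0.566. The shares with no and with 1 difference are parts of the same total, so fewer of the first leaves more room for the second. The shares rest on 805, 858 and 1138 peaks on the pseudogene strand and 499, 366 and 509 on the other.

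**Figure D4:**
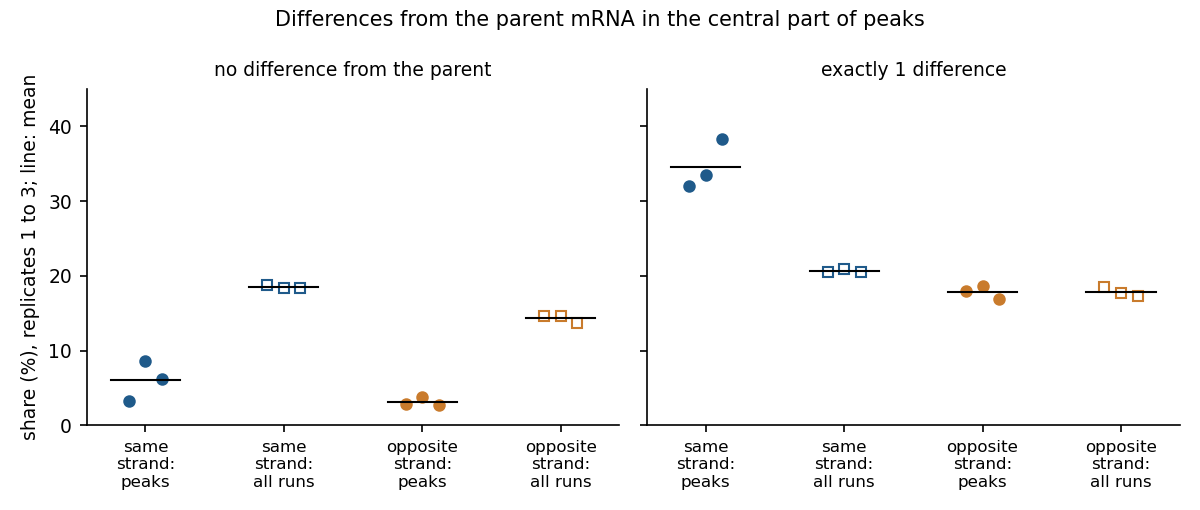
Share (y axis, %) of peaks whose central part has no difference (left) or exactly 1 difference (right) from the parent mRNA, for peaks (filled circles) and for all runs of the same length along the same pseudogenes (open squares), on the same strand (blue) and opposite strand (orange). Each symbol is 1 library and the line is the mean, and on the right the same-strand peaks, at 32.0% to 38.3%, stand above the other 3 sets.

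The excess of single differences was present in both width classes. It was 30.6% ± 3.02 against 20.7% ± 0.766 of runs for peaks up to 85 nt, and 39.7% ± 2.47 against 20.7% ± 0.611 for peaks of 86 to 200 nt. On the opposite strand the wider class had 12.6% ± 0.630 against 14.5% of runs. Within the central part, the single difference of the pseudogene strand lay in the first, middle and last of 3 equal parts in 37.8%, 24.4% and 37.8% of peaks, and on the opposite strand in 27.9%, 37.5% and 34.6%. Single differences from C in the parent to T in the pseudogene made up 18.7% ± 2.33 and those from G to A 20.8% ± 0.704, both at or below their share among all differences of these pseudogenes, 22.9% ± 0.700 and 24.8% ± 0.429. Whether reads of the parent mRNA with 1 mismatch took part in these peaks was not tested.

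A whole 31-nt window was found unchanged in the parent mRNA for few peaks. The share was 2.88%, 10.3% and 8.77% on the pseudogene strand, and windows along the same pseudogenes were unchanged in 12.1%, 13.9% and 14.5%. On the opposite strand 1.68% ± 0.561 were unchanged against 8.11% ± 0.464 of windows. Replicate 1 had the lowest share, and all libraries lay below their windows on both strands. Among pseudogene-strand peaks of 86 to 200 nt this did not hold in replicate 2, at 18.6% against 18.2% of windows.

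By density, pseudogenes of the cytoskeleton, with 263 ± 106 peaks per Mb on their strand, of translation factors, with 261 ± 22.6, and of ribosomal proteins, with 208 ± 33.2, came first among the families, and the cytoskeleton overlapped the others between libraries. Pseudogenes of ribosomal proteins, the largest family of processed pseudogenes, carried 796 peaks on their strand against 321 on the other. They made up 25.4%, 26.1% and 24.9% of pseudogene-strand peaks against 17.6%, 18.9% and 19.1% of opposite-strand peaks, which did not overlap. The family held 24.6% of the pseudogenes and 17.5% of their length. Pseudogenes of translation factors, among them the elongation factor Eef1a1, had 41, 42 and 48 peaks against 15, 5 and 17. Those of the cytoskeleton, actins and tubulins foremost, had 24, 37 and 55 against 10, 12 and 10, and 3.66% of them, 7 pseudogenes, had a peak in all 3 libraries, against 0.516% of ribosomal protein pseudogenes and 0.664% of all processed pseudogenes.

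Families of chromatin and of RNA-binding proteins followed at 196 ± 30.5 and 174 ± 22.8 peaks per Mb. Chromatin and histone pseudogenes had 48, 45 and 60 peaks on their strand against 21, 14 and 28, and those of RNA-binding and splicing proteins had 41, 52 and 52 against 23, 16 and 22. Glycolytic pseudogenes had 30, 26 and 48 against 18, 20 and 31, and chaperone pseudogenes 32, 35 and 48 against 27, 20 and 34. Pseudogenes of the ubiquitin and proteasome system had 8, 19 and 17 against 10, 18 and 12, with no excess in replicate 1 and a mean ratio of 1.09 ± 0.310. Mitochondrial respiration pseudogenes had 9, 18 and 19 against 9, 6 and 11. The excess on the pseudogene strand was therefore shared by most families in each library, and its size ranged widely with counts this small.

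The peaks were spread over many parents. Of 2833 parents, 1053 had at least 1 peak on a pseudogene, and the 10 parents with the most peaks held 15.3% of them, beside 13.7% of the pseudogenes and 12.9% of opposite-strand peaks. Eef1a1 had 34 pseudogenes, which carried 16, 14 and 19 peaks and 5 on the opposite strand in all, and 4 of them, Gm12912, Gm5869, Gm6392 and Gm9521, had a peak in every library. Gapdh, a glycolytic enzyme, had 239 pseudogenes with 11, 14 and 24 peaks, and 46 on the opposite strand in all. These parents thus differed in strand: the copies of Eef1a1 held peaks mostly on 1 strand and those of Gapdh on both. The ribosomal protein genes Rpl7a, Rpl29 and Rps2 had the most, with 66, 65 and 57 pseudogene peaks against 22, 11 and 21.

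In number, most of these parents had more peaks on their copies together than on their own exons, while per kb most had fewer on the copies. Rpl29 had 1 peak on its own exons in the 3 libraries, Eef1a1 had 2, all in replicate 1, and Actg1, cytoplasmic actin, and Rps6 had none. Pseudogenes of Actg1 carried 5, 14 and 9 peaks, and CT030193.1 and Gm12003 had one in all 3 libraries. Tuba1b, an alpha-tubulin, had 1 own peak and 25 on its 20 pseudogenes. Of the 25 parents with the most pseudogene peaks, 24 had more there than on their own exons, and Hnrnpa1, a splicing regulator, with 29 own peaks and 26 on pseudogenes, was the exception. The parents were chosen by this count, and their pseudogenes together are longer than the parent. Per kb over the 3 libraries, own exons had more peaks than the pseudogenes for 17 of the 25 and fewer for 8. Rpl7a had 6.18 per kb on its own exons and 0.491 on its pseudogenes, Rps2 had 2.19 and 0.537, and Gapdh had 1.94 and 0.232. Eef1a1 had 0.802 and 1.41, Tuba1b had 0.533 and 1.19, and Actg1 had none on its own exons and 1.11 per kb on its pseudogenes.

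The same parents varied in how much of their sequence occurs more than once. Over the 25, the share of windows found once had a median of 57.2% and ran from 4.10% in Gm10358 to 87.4% in Rpl21. Of the 31-nt windows along the exons of Tuba1b, 10.6% were found once in the genome, and the share was 32.4% in Actg1, 41.1% in Eef1a1, 44.8% in Rpl29, 61.3% in Rpl7a and 72.3% in Gapdh. Braf, a kinase with a single processed pseudogene, Gm18189, had 98.8% of its windows found once and 11, 40 and 58 peaks on its own exons, while Gm18189 had 2, both in replicate 3. What part multiple placement played in the low counts of parent exons was not tested.

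**Figure D5:**
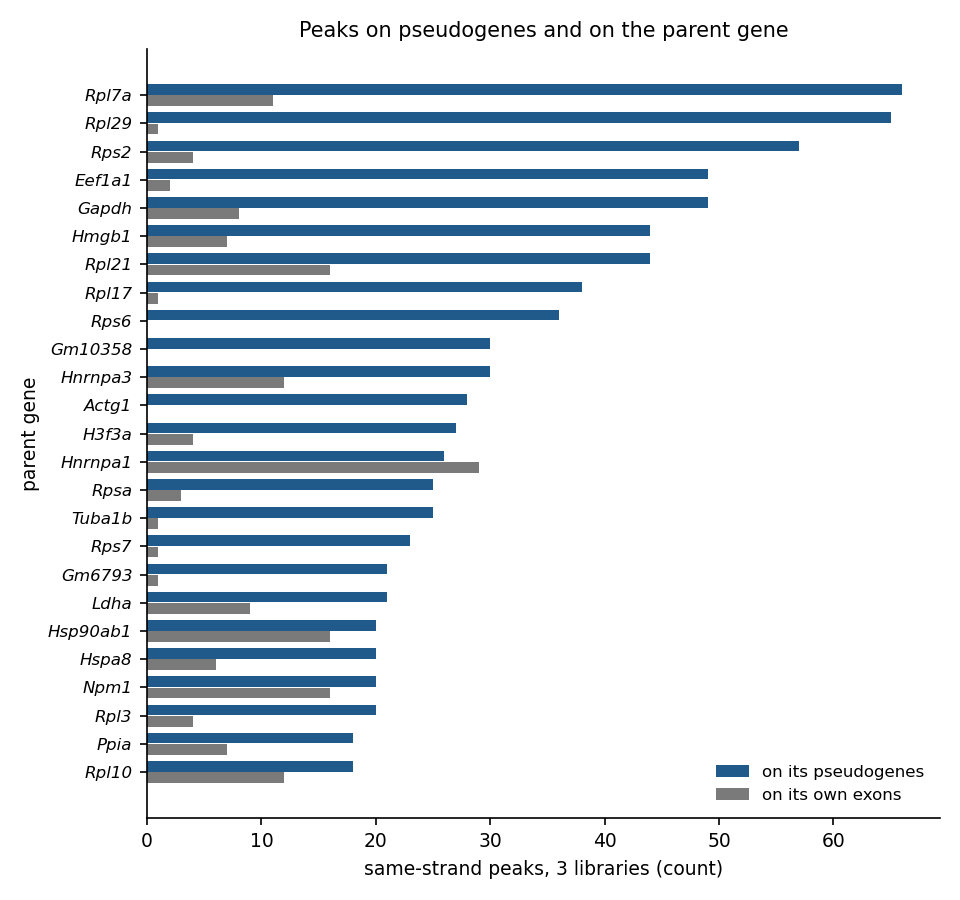
Number of same-strand peaks in the 3 libraries (x axis, count) on the processed pseudogenes of a parent gene (blue) and on its own exons (grey), for the 25 parents with the most pseudogene peaks (y axis). Blue exceeds grey for all but Hnrnpa1, which had 26 and 29; the counts are not divided by length.

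The pseudogene base under a peak was compared with its counterpart in the parent. A parent peak of the same library covered the matching base for 12.3%, 15.8% and 16.2% of pseudogene-strand peaks, beside 7.63%, 12.9% and 14.6% of all aligned bases of the same pseudogenes. Each library was above its own base level, by less than 5 percentage points. For peaks of 86 to 200 nt the values were 20.2%, 15.4% and 19.1% beside 7.49%, 12.5% and 15.1%, a wider gap in replicate 1. For peaks up to 85 nt they were 8.64%, 17.1% and 13.6% beside 7.54%, 13.7% and 14.3%, so replicate 3 lay below its base level. On the opposite strand the values were 11.8% ± 6.03 and 11.9% ± 4.60. The matching base lay in coding sequence for 97.2% ± 0.562 of peaks and in the 3′ UTR, where most miRNA sites with strong effects are known, for 2.63% ± 0.491. All aligned pseudogene bases matched coding sequence in 94.4% and the 3′ UTR in 5.18%. Within the annotated pseudogenes, peaks were thus not concentrated on copies of the 3′ UTR. Peaks with a midpoint past the annotated 3′ end are left out by the rule, so copies of the 3′ UTR lying there were not assessed.

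Since a processed pseudogene lacks introns, a peak may lie over bases that are joined only in the mRNA. The central part spanned the copy of an exon junction, with at least 5 nt on each side, in 10.9%, 14.8% and 16.1% of peaks, beside 10.5%, 12.5% and 12.5% of windows of the same length. The opposite strand had 7.21%, 8.20% and 13.6% beside 9.88% ± 1.09. For peaks of 86 to 200 nt the share was 20.5% ± 2.64 against 16.5% ± 0.855 of windows. For peaks up to 85 nt it was 7.86%, 6.63% and 9.76% against 8.13%, 7.89% and 7.45%, so only replicate 3 lay above its windows.

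Seed matches in pseudogene peaks lay around the density of pseudogenes at large. The strand of the peak was searched for sites complementary to bases 2 to 8 of 11 miRNAs, namely CTACCTC for let-7, GCACTTT for miR-17, TTTGCAC for miR-19, GTGCAAT for miR-25 and miR-92, ACCAAAG for miR-9-5p, TGCTGCT for miR-15 and miR-16, TGTTTAC for miR-30, AATGTGA for miR-23, AGCATTA for miR-155-5p, ACTTTAT for miR-142a-5p and ATAAGCT for miR-21a-5p. Such sites numbered 27, 27 and 19 in the central parts, or 1.18, 1.03 and 0.530 per kb. The opposite-strand peaks had 1.06, 0.795 and 0.304 per kb, and all processed pseudogene exons had 0.902 per kb on their strand. The 3 libraries lay on either side of this level. The family of miR-15 and miR-16 had the most, 9, 9 and 5, and was also the densest over all processed pseudogene exons, at 0.216 per kb. The miRNA that the study followed in ischaemia, miR-21a-5p, had 3, 0 and 1, beside 0.0356 per kb over all exons. Densities in peaks and over all exons were not tested against each other. Both are shown from RefSeq with the seed in capitals.
miR-16-5p: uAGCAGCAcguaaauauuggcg
miR-21a-5p: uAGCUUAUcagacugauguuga

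The state of the pseudogene gave smaller differences. Transcribed processed pseudogenes carried 75, 60 and 85 peaks against 65, 39 and 72 on the opposite strand, ratios of 1.15, 1.54 and 1.18, below the 1.51, 2.07 and 2.07 of the processed type in each library. They more often had a peak in all 3 libraries, 8 of 296 or 2.70% against 60 of 9940 or 0.604%, and so they did on the opposite strand, 6 of 296 against 11 of 9940. The difference was not tested, and the transcribed type held 6.4% of the exon length in 2.89% of the pseudogenes. Pseudogenes inside a protein-coding gene on the same strand, 851 in number, had ratios of 1.81, 3.07 and 3.0, above the 1.45, 1.96 and 1.89 of the others in each library. Where the parent had no exon peak in any library the ratio was 1.06, 1.10 and 1.64, where it had one in 1 library it was 1.88, 2.50 and 2.82, in 2 libraries 1.74, 2.12 and 1.94, and in all 3 libraries 1.43, 2.13 and 1.94. The ratio thus did not follow the number of libraries beyond the first step. Pseudogenes named for Gapdh or Hmgb1 in their symbol, a small part of the copies of these genes, had 1 peak in all, on Gapdh-ps14 in replicate 3. Whatever their symbol, the 239 copies of Gapdh carried 49 peaks and the 157 of Hmgb1 carried 44. Of all processed pseudogenes, 22.8% had a peak in at least 1 library.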

How the data were processed

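Ago2 HITS-clip of N2A cells gave 1 deposited table, in which the authors list for each peak its chromosome, start, end, strand, library and a score. Per the labels, columns carry no further unit, and the score ran from 54.6 to 60. The submitters' processing notes name FastQC, cutadapt, STAR and mm10. The peak caller, its threshold, any padding of peaks and the handling of multiply mapped reads are not given in the sources used here, so read depth is unknown and counts are of peaks.

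Starts were read as counting from 0. Peaks on 21 primary chromosomes were assigned by midpoint to GENCODE M21 exons (GRCm38). Pseudogene exons were aligned to 58745 protein-coding transcripts with blastn (BLAST+ 2.17.0, e-value 1e-10, at least 100 nt, sense strand), and the highest bit score gave the parent. Differences are substitutions at aligned bases. The central part is the peak less 30 nt on each side, an assumption drawn from the narrowest peaks. Windows of 31 nt were counted in the genome on both strands. Sequences came from GRCm38 (pysam 0.24.0) and RefSeq. Python 3.11.15, pandas 2.3.3 and numpy 2.4.6 were used.

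Errors are SD over 3 libraries. Libraries form 1 group, so tests were limited to an exact sign-flip permutation of the strand ratio. Pseudogenes were named if they had a peak in all 3 libraries, ordered by bases covered in all of them, or if their symbol named a listed parent. Families were defined from parent symbols. Members, lists and rules were chosen with earlier results of these data known. Strand assignment and the search for parents were tested on simulated data. Mature miR-124-3p was not analysed here. The result for 1 marker of other cells is not reported here.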

Additional observations from a re-analysis of the deposited data

How the results depend on the processing

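No paired analysis was possible because all replicates belong to 1 condition, so that no groups could be paired by replicate number (the strands were compared within each library). The 10 results were run under 78 alternatives. Only the strand ratio was checked for a change of direction, and none of its alternatives reversed it. Apart from the strand ratio, 17 alternatives moved a value by more than the spread between libraries (for the count of pseudogenes, by more than 1.5 times). The strand ratio stayed above 1 in each, but moved by more than its spread with width, to 4.27 for peaks of 86 to 200 nt and to 1.36 for peaks up to 85 nt. The number of pseudogenes with a peak in all libraries was 146 to 213 when only a pair of libraries was required, by leaving out each library in turn (213 without replicate 1, 194 without replicate 2, 146 without replicate 3), 417 for a peak in at least 2 libraries, 13 with peaks of 86 to 200 nt and 17 with strand reversed. Restriction to peaks of 86 to 200 nt also gave a share of 0.211% of all peaks and 5.55% of peaks shared with another library. In this class 13.8% had an unchanged window (19.0% of windows) and 18.2% a parent peak (11.7% of aligned bases). Of these peaks 29.5% lay over ribosomal protein pseudogenes and 20.5% over an exon junction (16.5% of windows). Peaks up to 85 nt, an alternative chosen after seeing the data, gave 4.65% shared. An unchanged window was found for 2.13% at 51 nt and for 12.2% where the parent had at least 90% identity over 50% of the pseudogene. A parent peak of any library lay at the matching base in 28.4%. Seed matches followed by A numbered 0.251 per kb. Counting any overlap in place of the midpoint gave a strand ratio of 1.55. The cause of these shifts was not tested, beyond the number of peaks or libraries that each setting leaves. Depth of reads behind a peak is unknown, so a pseudogene without a peak cannot be called unbound.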

Other observations

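Peaks were spread evenly along the pseudogenes. The midpoint lay in the first, middle and last of 3 equal parts for 33.4% ± 1.56, 33.0% ± 0.204 and 33.6% ± 1.76 of peaks on the pseudogene strand, and for 34.3% ± 1.24, 34.2% ± 3.57 and 31.5% ± 2.65 on the opposite strand. G and C made up 44.6% ± 0.779 of the central parts on the pseudogene strand and 44.5% ± 0.794 on the other, below the 47.0% of all processed pseudogene exons. Npm1, a nucleolar chaperone, had 20 peaks on its pseudogenes and 2 on the opposite strand, and Ldha, lactate dehydrogenase, had 21 and 2. Ppia, a prolyl isomerase, had 18 and 19. Pou5f1, a pluripotency factor, had 1 and 4.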
